A study of Mus musculus with 24 samples.

Results

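The genes described here encode proteins that load transmitter into synaptic vesicles, dock and prime the vesicles at the presynaptic membrane, fuse them when calcium enters and retrieve their membrane afterwards. They came from a list of 35 genes, and a gene was read from the deposited table through rows that name it alone, the brightest row standing for a gene with several. Of the 35 genes, 34 had such a row, out of 18820 genes in all. Doc2a was named only together with Ino80e and therefore has no value here. The members were divided by role into 5 measured calcium sensors and C2-domain proteins, 6 SNAREs and complexins, 6 active zone and priming proteins, 3 Rab3 GTPases, 8 vesicle membrane proteins and synapsins, 3 transmitter transporters and 3 endocytosis proteins.

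Prefrontal cortex was taken from 12 male mice heterozygous for the Df(16)A deletion (Df16(A)+/- in the labels) and from 12 male wild-type littermates. All 24 mice had a C57BL6/J strain background and were 8 weeks old. The deletion removes 1 copy of a segment of mouse chromosome 16 that corresponds to the segment lost in a human microdeletion associated with schizophrenia, and it is carried by every cell of the animal. Total RNA was labelled and hybridised to Affymetrix arrays, 1 array per mouse, and the values are log2 levels made with RMA (robust multi-array average). The labels number the arrays of a genotype as replicates without stating how animals were housed or pooled, so p-values measure the spread between these samples.

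Release begins when a vesicle SNARE (Vamp1, Vamp2) meets the plasma membrane SNAREs Snap25 and Stx1a and they wind into a complex. Complexins bind this complex, and synaptotagmins trigger it on calcium entry. Active zone scaffolds (Bassoon, Piccolo, RIMs) place vesicles beside calcium channels, and Munc13 proteins prime them. The glutamate transporter Slc17a7 is typical of cortical pyramidal neurons, Slc17a6 of thalamic neurons and Slc32a1 of inhibitory neurons. In cortex, Syt2 and Vamp1 are enriched in fast-spiking interneurons that express parvalbumin (Pvalb).

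The arrays were alike, with pairwise correlations between 0.994 and 0.997, and the medians of the arrays lay between 6.71 and 6.82. On the first principal component, which held 14.7% of the variance, mutant replicates 5, 9 and 10 had the most extreme positions. The genotype labels were checked on the deleted segment, where 20 of 25 measured genes were lower in mutants and 0 were higher, with a median log2 fold change of -0.64. Dgcr8, a deleted gene that encodes a subunit of the miRNA-processing complex, averaged 8.26 ± 0.08 in mutants and 8.79 ± 0.05 in wild types (SD, n = 12 each; adjusted p = 5.2e-13, limma). Tbr1, a transcription factor of cortical glutamatergic neurons, was at 10.77 ± 0.05 in mutants and 10.83 ± 0.07 in wild types, and without a detection call no marker could be called present or absent. No gene of the cell type and region marker lists passed the threshold. Of the 4 measured blood markers all 4 were below 0, with a median log2 fold change of -0.56, and 3 had an unadjusted p under 0.05 (limma). Those 3 had wild types far above the rest. In Ngp the medians were 5.90 in mutants and 6.60 in wild types, with a highest wild type of 10.64. In S100a8 they were 5.40 and 5.59, with a highest wild type of 8.94. In S100a9 they were 5.49 and 5.77, with a highest wild type of 7.86. The remaining blood marker, Alas2, was at -0.05. All 6 measured oligodendrocyte markers were below 0, with a median of -0.05, and 9 of 10 interneuron markers were above 0, with a median of 0.05. The interneuron marker below 0 was Pvalb, at 9.25 ± 0.21 in mutants and 9.31 ± 0.13 in wild types (adjusted p = 0.753, limma). Of the thalamus and hippocampus markers 6 of 7 were above 0, with a median of 0.05. The 5 measured striatum markers had a median of 0.10, with 3 above 0. At an unadjusted p under 0.05 (limma), 2 striatum markers were higher in mutants (Drd2 and Ppp1r1b) and 1 was lower (Penk, at -0.14). The part that such differences in tissue composition play in the results was not tested, and in bulk tissue fewer cells of a type and less RNA per cell cannot be told apart.

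A single member, the calcium sensor Doc2b, differed between the genotypes, and it was higher in mutants. None of the other 33 measured members passed the threshold in either direction (adjusted p under 0.05, limma with Benjamini-Hochberg adjustment over 18820 genes). Over all genes, 0.531% were called higher and 0.228% lower in mutants. The 34 members had a median log2 fold change of -0.002, against -0.001 over all genes, and 15 of them were above 0 and 19 below. At an unadjusted p under 0.05, 4 members were higher (Doc2b, Bsn, Rab3b and Rab3c) and 0 were lower, where 6.11% of all genes were higher and 5.82% were lower. Fold changes are given on the log2 scale, and a value called a fold is a ratio. The plot of fold changes by role shows Doc2b apart from a narrow band of other members. For 23 members the whole 95% interval lay within 0.1 of 0 on the log2 scale, a fold between 0.933 and 1.07, and for 33 it lay within 0.2. Most members varied little between mice, with 30 of 34 having a within-genotype SD below the median of all genes. The SD ran from 0.0168 in Dnm1 to 0.177 in Syt2. The members were also brighter, with a median level of 11.3 in mutants against 7.57 over all genes. Other presynaptic genes, described below, had a similar median SD, at 0.0615 against 0.0626 in the members. The part of brightness in the low SD was not tested.

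**Figure D1:**
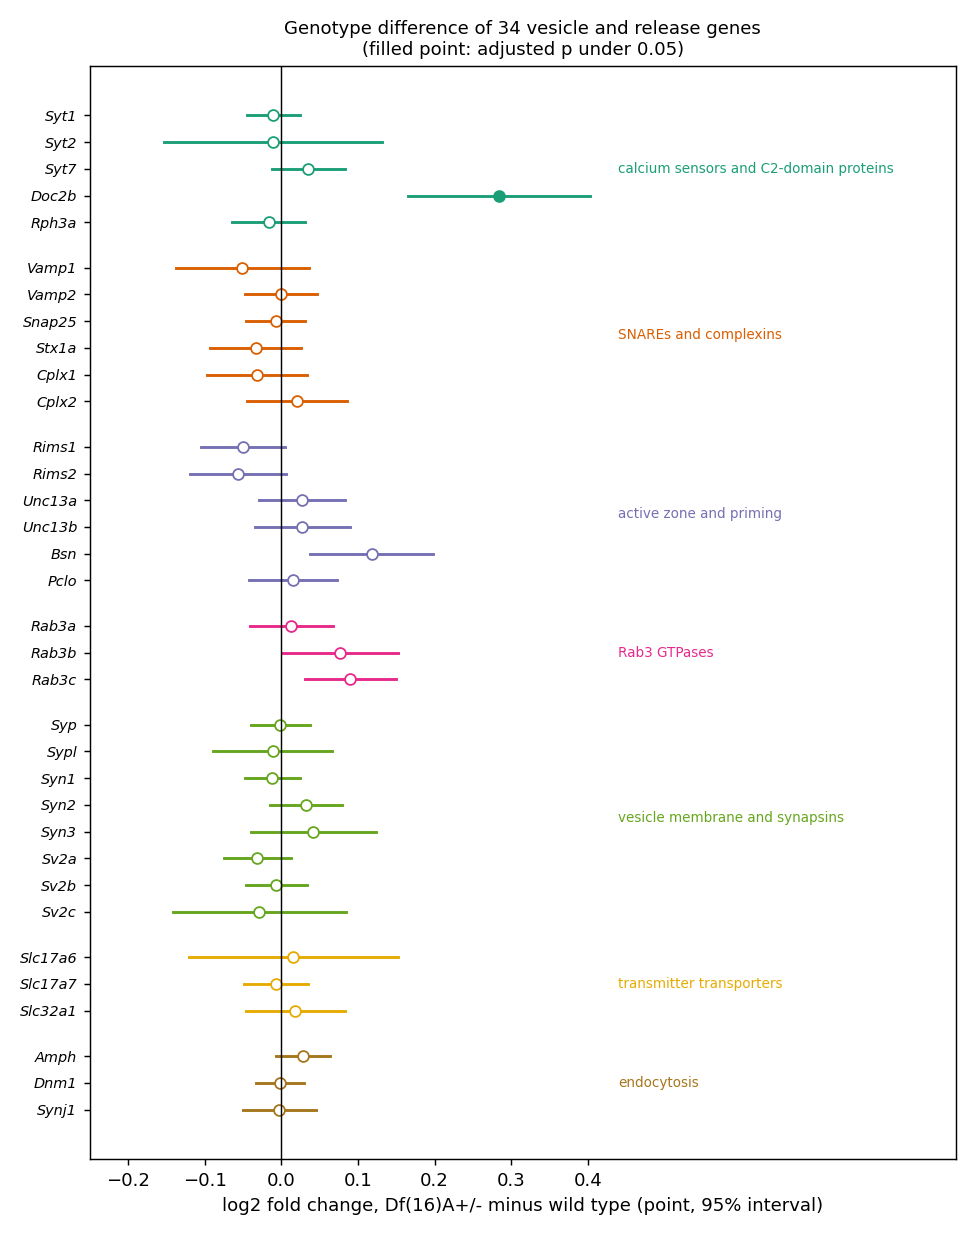
Log2 fold change, Df(16)A+/- minus wild type, of 34 vesicle and release genes on the horizontal axis, by role; points are fold changes and lines are 95% intervals (n = 12 mice per genotype). Doc2b at 0.28 carries the filled point, and the interval of each other member lies within 0.2 of 0.

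Doc2b encodes a soluble C2-domain protein that binds calcium with high affinity and takes part in asynchronous and spontaneous release. Its level in mutants had a lowest value of 7.54, a median of 7.72 and a highest value of 8.06, against 7.28, 7.42 and 7.83 in wild types. All 12 mutants lay above the wild-type median, although the groups overlapped: 2 wild types exceeded the lowest mutant and 1 mutant exceeded the highest wild type. The means were 7.73 ± 0.13 in mutants and 7.45 ± 0.16 in wild types (SD, n = 12 each), a log2 fold change of 0.28 ± 0.06 (SE) with a 95% interval from 0.17 to 0.40. That is a fold of 1.22, with an interval from 1.12 to 1.32, and an adjusted p of 0.00923 (limma). Doc2b was the 61st gene by p among those higher in mutants. Its neighbours on chromosome 11 in the RefSeq gene order of assembly GRCm38.p6 did not pass the test: the log2 fold changes were -0.01 for Crk, 0.003 for Ywhae and 0.09 for Rph3al, which encodes a Rab effector. After removal of the genotype means, Doc2b correlated with the mean of 6 oligodendrocyte markers at r = -0.46 and rho = -0.25 (adjusted permutation p = 0.0839 and 0.498 over 68 relations, two-sided). That r was -0.16 without the 2 mice farthest in the marker mean, 0.06 in arrays 1 to 12 and -0.63 in arrays 13 to 24. The part of those markers in the Doc2b difference was not tested.

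The labels carry a running array number, and the genotypes are spread over it. Among arrays 1 to 12 (7 mutants, 5 wild types), Doc2b was higher in mutants by 0.23, and among arrays 13 to 24 (5 mutants, 7 wild types) by 0.38. Neither set of arrays alone reached the threshold (adjusted p = 0.0789 and 0.166, limma). In mutants, Doc2b ran from 7.54 to 7.73 in arrays 1 to 12 and from 7.78 to 8.06 in arrays 13 to 24, without overlap. In wild types it ran from 7.28 to 7.54 and from 7.30 to 7.83. What the array number stands for is not stated, and its relation to Doc2b within mutants was not tested. Without the mutants of replicates 5, 9 and 10 the Doc2b difference was 0.28 with an adjusted p of 0.0462 (limma). The plot of both sets of arrays shows that Doc2b had the largest fold change of the 34 measured members in each. The sign was the same in both sets for 21 members, 11 of them above 0 and 10 below.

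**Figure D2:**
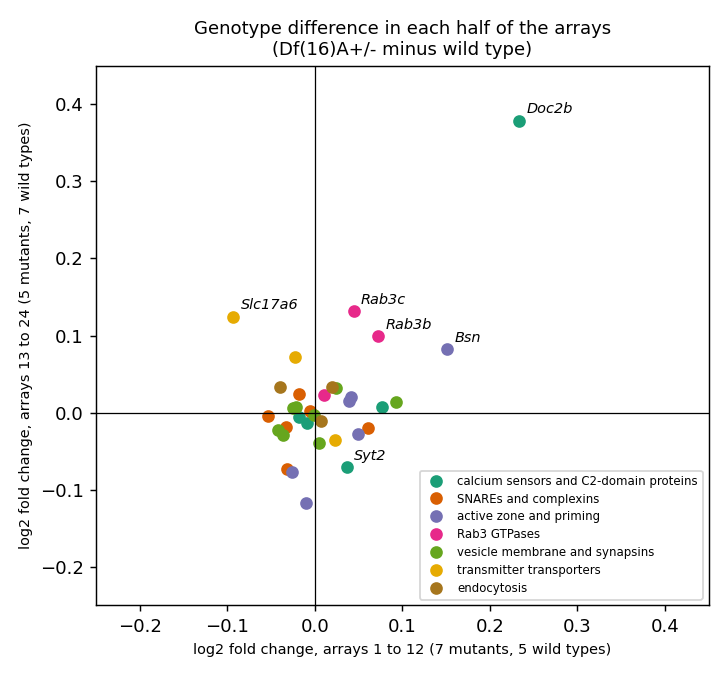
Log2 fold change (Df(16)A+/- minus wild type) of each measured member in arrays 1 to 12 on the horizontal axis and in arrays 13 to 24 on the vertical axis, coloured by role. Doc2b stands at 0.23 and 0.38, while Slc17a6 stands at -0.09 and 0.12.

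None of the other 4 measured calcium sensors and C2-domain proteins passed the threshold. Syt1, the fast calcium sensor of most forebrain synapses, ranged from 13.20 to 13.29 with a median of 13.26 in mutants, and from 13.22 to 13.30 with a median of 13.28 in wild types (log2 fold change -0.01 ± 0.02 SE). The groups overlapped almost fully. Syt7, a slow high-affinity sensor, had a log2 fold change of 0.04 ± 0.02, and Rph3a (rabphilin), a Rab3 effector with C2 domains, of -0.02 ± 0.02. Syt2 had the widest interval of the 34 measured members, from -0.15 to 0.13 around -0.01. The median log2 fold change of the 5 measured sensors was -0.01, with 1 called.

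Of the SNAREs and complexins, none of 6 passed and 5 of 6 lay below 0, with a median log2 fold change of -0.02. Vamp1, a vesicle SNARE abundant in brainstem, spinal cord and fast-spiking interneurons, had a lowest value of 10.80, a median of 10.92 and a highest of 11.19 in mutants, against 10.79, 10.99 and 11.12 in wild types. That is a log2 fold change of -0.05 ± 0.04 (SE; adjusted p = 0.669, limma), and the groups overlapped over nearly the whole range. Vamp2, the main forebrain vesicle SNARE, had a fold change of -0.001, Snap25 of -0.01 and Stx1a of -0.03. The complexins Cplx1 and Cplx2 had log2 fold changes of -0.03 and 0.02.

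None of the 6 active zone and priming genes was called. Bsn encodes Bassoon, a giant scaffold of the presynaptic cytomatrix. Its level had a lowest value of 10.57, a median of 10.72 and a highest of 10.97 in mutants, against 10.52, 10.58 and 10.77 in wild types. In 4 mutants it lay above the highest wild type, and 10 mutants were above the wild-type median. The log2 fold change was 0.12 ± 0.04 (SE; adjusted p = 0.198, limma). Bsn has another row of its own, which gave 7.65 ± 0.13 in mutants and 7.66 ± 0.10 in wild types, so the 2 rows of this gene disagreed. Its paralogue Pclo had a fold change of 0.02.

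The RIM proteins, which tether calcium channels and Rab3 vesicles, lay below 0: Rims1 at -0.05 ± 0.03 (adjusted p = 0.464, limma) and Rims2 at -0.06 ± 0.03 (SE; adjusted p = 0.477, limma). Rims1 ran from 11.04 to 11.28 in mutants and from 11.13 to 11.23 in wild types, and 6 mutants were below the lowest wild type. Rims2 ran from 9.92 to 10.16 in mutants and from 10.03 to 10.22 in wild types, and again 6 mutants were below the lowest wild type. Those 6 included replicates 5, 9 and 10 in Rims2, and replicates 5 and 9 in Rims1. Without mutant replicates 5, 9 and 10 the log2 fold change was -0.03 in Rims1 and -0.03 in Rims2. In arrays 1 to 12 it was -0.03 in Rims1 and -0.01 in Rims2, and in arrays 13 to 24 it was -0.08 in Rims1 and -0.12 in Rims2. Unc13a and Unc13b, which encode Munc13 priming proteins, both had fold changes of 0.03. A further Unc13a row gave -0.02.

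The 3 measured Rab3 GTPases, vesicle proteins that recruit RIM and rabphilin, all lay above 0, with a median log2 fold change of 0.08, and none passed the threshold. Rab3c had a lowest value of 11.11, a median of 11.26 and a highest of 11.36 in mutants, against 11.03, 11.19 and 11.27 in wild types. In 5 mutants Rab3c exceeded the highest wild type, and the difference was 0.09 ± 0.03 (SE; adjusted p = 0.187, limma). Rab3b was at 10.12 ± 0.08 in mutants and 10.04 ± 0.10 in wild types (SD, n = 12 each; 0.08 ± 0.04 SE; adjusted p = 0.415, limma). Rab3a, the most widely studied member of the family, differed by 0.01. The plot of levels by mouse shows 1 mutant well below the others in Rab3c (replicate 1) and 1 in Rab3b (replicate 4).

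**Figure D3:**
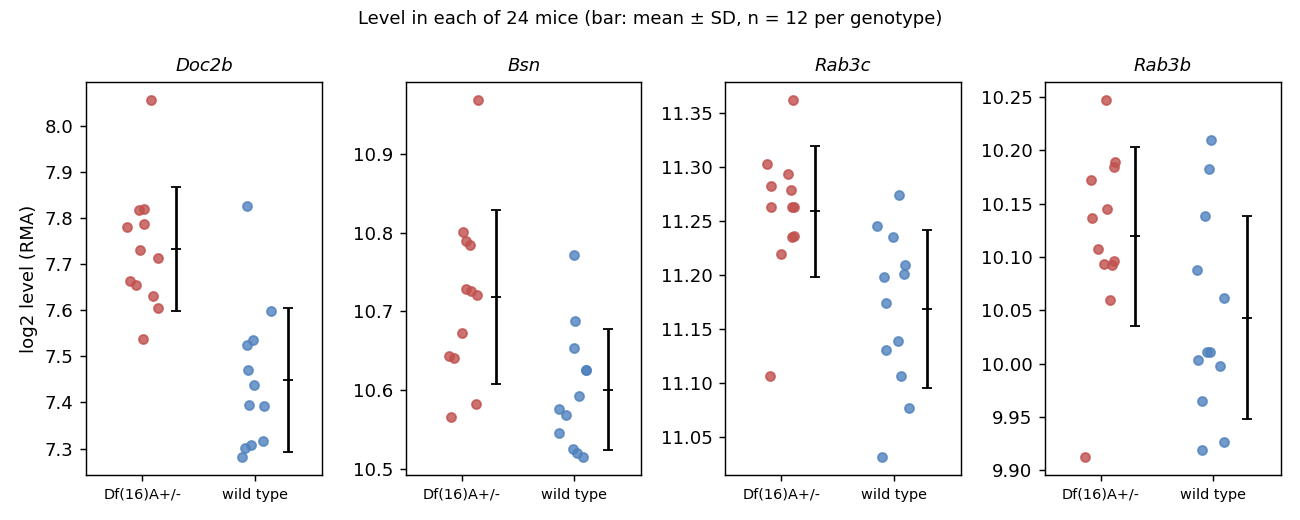
Log2 level (RMA) on the vertical axis of Doc2b, Bsn, Rab3c and Rab3b in each of 24 mice; points are mice, Df(16)A+/- left and wild type right, and bars are the mean ± SD (n = 12 per genotype). Doc2b had an adjusted p under 0.05, and the other 3 genes did not.

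The 8 vesicle membrane proteins and synapsins had fold changes from -0.03 (Sv2a) to 0.04 (Syn3), with a median of -0.01, and none passed the threshold. In Sv2a (-0.03 ± 0.02 SE), 1 mutant lay above the wild-type median (adjusted p = 0.587, limma). Syp, which encodes synaptophysin, a common marker of vesicles, had medians of 12.30 in mutants and 12.30 in wild types and a fold change of -0.001. Its relative Sypl differed by -0.01. The synapsins, which tether vesicles to one another and to actin, had fold changes of -0.01 (Syn1), 0.03 (Syn2) and 0.04 (Syn3). Sv2b and Sv2c, paralogues of the vesicle glycoprotein Sv2a, had fold changes of -0.01 and -0.03.

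Neither glutamate nor GABA loading genes passed the threshold. Slc17a7 (VGLUT1) ran from 12.98 to 13.13 in mutants and from 12.99 to 13.15 in wild types, a log2 fold change of -0.01 ± 0.02 (SE). Slc32a1, the vesicular transporter of GABA and glycine, ran from 8.18 to 8.52 in mutants and from 8.22 to 8.46 in wild types, a fold change of 0.02 ± 0.03. Slc17a6 (VGLUT2) had a wider spread, from 7.24 to 7.88 in mutants and from 7.20 to 7.65 in wild types, and the fold change was 0.02 ± 0.07 (SE). Its fold change was -0.09 in arrays 1 to 12 and 0.12 in arrays 13 to 24.

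The 3 endocytosis genes had the lowest median within-genotype SD of the 7 roles, at 0.0265. Amph (amphiphysin), a membrane-bending adaptor, had a fold change of 0.03 ± 0.02, and 12 mutants were above the wild-type median, but the test was not passed (adjusted p = 0.531, limma). Dnm1, the dynamin that pinches off vesicles, and Synj1, a lipid phosphatase that sheds the clathrin coat, had fold changes of -0.002 and -0.003.

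A wider list of 109 other presynaptic genes, of which 102 were measured, was followed beside the members. None of the 102 passed in either direction (limma), 35 lay above 0 and 67 below, and the median log2 fold change was -0.01. Of the 102, 12 had an unadjusted p under 0.05 (limma), 5 of them higher in mutants and 7 lower. At that threshold 6.11% of all genes were higher and 5.82% lower. Napa (alpha-SNAP), which takes SNARE complexes apart with NSF, had the smallest p, at 11.54 ± 0.04 in mutants and 11.61 ± 0.03 in wild types (SD, n = 12 each; -0.07 ± 0.02 SE; adjusted p = 0.117, limma). The calcium channel subunit Cacna1b, the N-type channel of many release sites, was at 11.14 ± 0.05 in mutants and 11.07 ± 0.07 in wild types (SD, n = 12 each; adjusted p = 0.257, limma). By role, 19 of 23 other endocytosis genes lay below 0, Ap2m1, a subunit of the clathrin adaptor, among them at -0.05 ± 0.02 (SE). Of the other SNAREs and their regulators 15 of 20 lay below 0, and of the other active zone and priming genes 13 of 20 lay above 0. Over all genes 49.0% lay above 0.

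Syt2 and Vamp1 varied together between mice of the same genotype, and with Pvalb, the calcium-binding protein of fast-spiking interneurons. Syt2 ran from 7.20 to 7.79 with a median of 7.39 in mutants, and from 7.16 to 7.77 with a median of 7.45 in wild types, so the groups overlapped over almost the whole range. Among preset pairs, deviations from the genotype mean correlated at r = 0.82 and rho = 0.84 for Syt2 with Pvalb, at 0.84 and 0.82 for Vamp1 with Pvalb, and at 0.87 and 0.85 for Syt2 with Vamp1. Each permutation p was 1e-05, the smallest that the resamples can give, and the adjusted p was 2.67e-05 over 8 pairs (24 mice, two-sided). Without the 2 mice farthest from the median of the first gene, r was 0.77, 0.79 and 0.82. Within mutants r was 0.87, 0.84 and 0.88, and within wild types 0.80, 0.87 and 0.87. Within arrays 1 to 12 it was 0.87, 0.80 and 0.91, and within arrays 13 to 24 it was 0.83, 0.94 and 0.84.

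**Figure D4:**
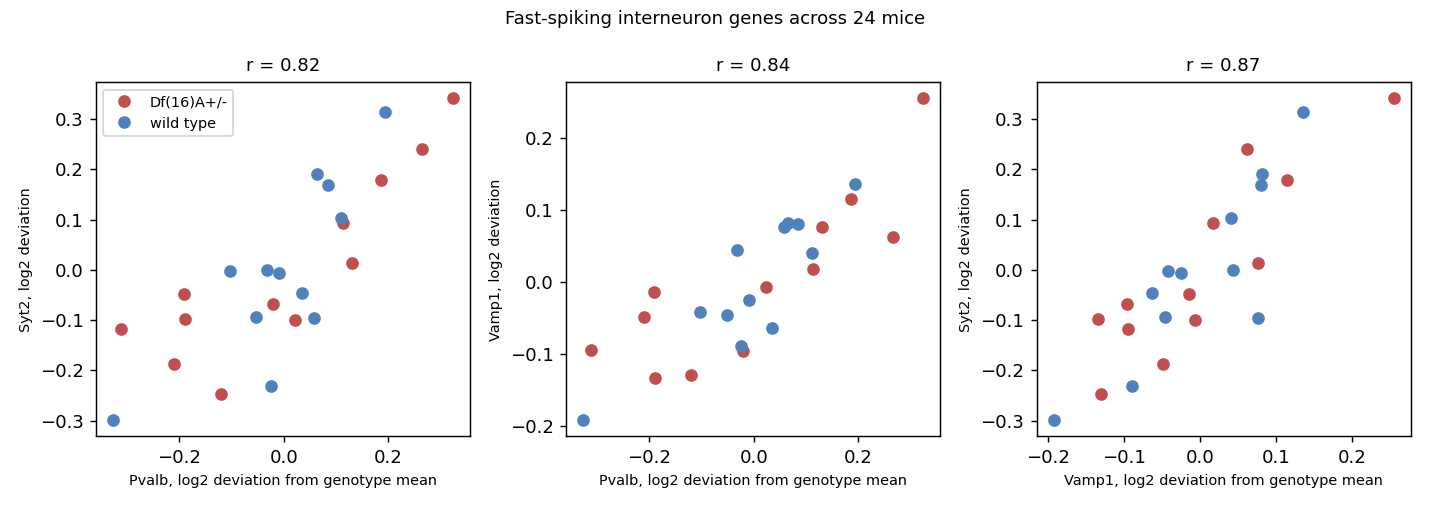
Deviation of Syt2, Vamp1 and Pvalb from the genotype mean, in log2 units, on both axes for 24 mice; Df(16)A+/- and wild-type mice carry different colours. Syt2 and Vamp1 rise together with Pvalb, with r of 0.82, 0.84 and 0.87.

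The promoter windows of these 2 genes are given because they moved together between mice. Each holds 300 bases, 250 before and 50 after the start, as RefSeq gives them on assembly GRCm38.p6. Of the 34 measured members 28 were matched to such windows, 40 in all, and Doc2b was not among them. The windows were searched on both strands for AAGGTCA, a motif read by estrogen-related receptors, for TGACGTCA, the cyclic AMP response element, and for GGGCGG, the GC box, and capitals mark the matches. For Syt2 the first of its windows is printed.
Syt2, chr1:134646362-134646661, plus strand: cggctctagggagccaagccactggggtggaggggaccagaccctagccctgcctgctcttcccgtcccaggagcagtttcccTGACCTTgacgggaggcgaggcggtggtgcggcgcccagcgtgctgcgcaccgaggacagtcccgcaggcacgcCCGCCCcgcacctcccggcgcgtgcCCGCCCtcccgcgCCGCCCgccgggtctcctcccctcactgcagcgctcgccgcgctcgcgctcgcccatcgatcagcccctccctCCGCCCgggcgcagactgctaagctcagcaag
Vamp1, chr6:125215331-125215630, plus strand: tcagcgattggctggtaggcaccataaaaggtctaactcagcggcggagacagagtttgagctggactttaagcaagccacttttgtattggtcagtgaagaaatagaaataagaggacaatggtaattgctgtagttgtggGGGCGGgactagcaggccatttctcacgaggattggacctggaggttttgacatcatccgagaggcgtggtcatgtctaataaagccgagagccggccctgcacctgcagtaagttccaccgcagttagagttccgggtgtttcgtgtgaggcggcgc
AAGGTCA lay in the printed Syt2 window and in no other of 40 member windows, against 4.72% of 32851 windows of all genes. The other Syt2 window held matches to GGGCGG alone, and the windows of Pvalb, which is not a member, held 0 matches to any of these motifs. TGACGTCA lay in 1 of the 40 member windows, that of Syn1, against 1.79% of all windows. The GC box lay in 25 of 40 member windows, or 62.5%, against 35.7% of all. A match is a string of letters, not a site shown to be used.

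Other preset pairs gave less. Slc32a1 and Gad1, which encodes the enzyme that makes GABA, correlated at r = 0.61 and rho = 0.67 (adjusted permutation p = 0.00346 and 0.00092 over 8 pairs, two-sided). Without the 2 mice farthest in Slc32a1 r was 0.44, with a permutation p of 0.0407 and an adjusted one of 0.0814. It was 0.56 in arrays 1 to 12, 0.65 in arrays 13 to 24, and 0.59 without mutant replicates 5, 9 and 10 (adjusted permutation p = 0.0112). The pairs Slc32a1 with Gad2, Sv2c with Drd2, Slc17a6 with Tcf7l2 and Sv2b with Slc17a7 had r of 0.18, -0.34, -0.11 and -0.08, none past the threshold.

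A scan of all 34 measured members against Pvalb and against the mean of 6 oligodendrocyte markers was added after the data had been seen, giving 68 relations. With Pvalb, 8 members had a positive r past the adjusted threshold and 1 a negative one. The 18820 genes were not scanned in this way, so the share of all genes that would pass is not known. Beside Vamp1 and Syt2, Cplx1 had r = 0.78 and rho = 0.76, Sv2c 0.75 and 0.70, and Cplx2 0.74 and 0.70, with adjusted permutation p of 0.00034, 0.00034 and 0.000544 for r and 0.00068, 0.0034 and 0.00289 for rho (two-sided, 24 mice). Without the 2 mice farthest in Pvalb their r was 0.72, 0.69 and 0.71. Within arrays 1 to 12 it was 0.85, 0.74 and 0.82, and within arrays 13 to 24 it was 0.80, 0.77 and 0.74. Syn2 ran the other way, at r = -0.64 and rho = -0.64 (adjusted permutation p = 0.0071 and 0.0129), with -0.65 without those mice, -0.47 in arrays 1 to 12 and -0.90 in arrays 13 to 24.

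The other relations with Pvalb past the threshold were weaker. Sv2a had r = 0.63 and rho = 0.54 (adjusted permutation p = 0.0071 and 0.0362), Slc32a1 0.56 and 0.58 (0.0215 and 0.0254), and Rims1 0.56 and 0.44 (0.0215 and 0.115), so that Rims1 did not pass by rho. Without the 2 mice farthest in Pvalb their r was 0.48, 0.33 and 0.50, none past the adjusted threshold, with unadjusted permutation p of 0.0244, 0.133 and 0.0168. In arrays 1 to 12 their r was 0.81, 0.59 and 0.69, and in arrays 13 to 24 it was 0.58, 0.62 and 0.44.

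The oligodendrocyte markers moved with Pvalb as well. Their mean had a lowest level of 9.04, a median of 9.18 and a highest level of 9.45 in mutants, against 8.96, 9.28 and 9.61 in wild types. It correlated with Pvalb at r = 0.68 and rho = 0.62 (unadjusted permutation p = 0.00029 and 0.00155, two-sided), with r of 0.61 without the 2 farthest mice, 0.49 in arrays 1 to 12 and 0.90 in arrays 13 to 24. With the marker mean, 5 members had a positive r past the adjusted threshold and 1 a negative one. Here too the share of all genes that would pass is not known. Vamp1 and Syt2 each had r = 0.67, Sv2a 0.63, Cplx1 0.62 and Cplx2 0.56, with adjusted permutation p of 0.00351, 0.00369, 0.00748, 0.00822 and 0.0215. Their rho was 0.60, 0.60, 0.46, 0.57 and 0.56, with adjusted permutation p of 0.022, 0.022, 0.0905, 0.0254 and 0.0333. Syn2 had r = -0.57 and rho = -0.46 (adjusted permutation p = 0.0194 and 0.0884). Without the 2 mice farthest in the marker mean, r was 0.54 in Vamp1, 0.51 in Syt2, 0.34 in Sv2a, 0.59 in Cplx1, 0.44 in Cplx2 and -0.33 in Syn2, and of these 6 genes Cplx1 alone still passed the adjusted threshold. In the same order of genes r was 0.45, 0.46, 0.47, 0.66, 0.68 and -0.23 in arrays 1 to 12, and 0.83, 0.84, 0.67, 0.65, 0.66 and -0.85 in arrays 13 to 24. The part of tissue composition in these relations was not tested.

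**Figure D5:**
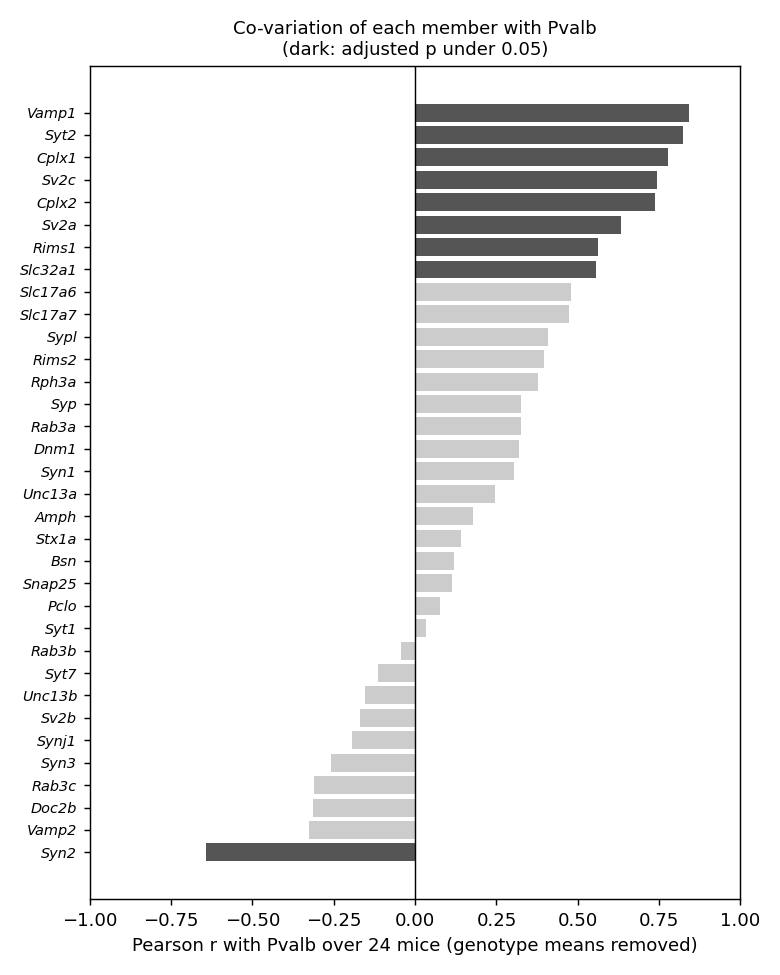
Pearson r of each measured member with Pvalb over 24 mice after the genotype means were removed, on the horizontal axis; dark bars have an adjusted p under 0.05. Vamp1 (0.84) and Syt2 (0.82) have the highest bars and Syn2 (-0.64) the lowest.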

How the data were processed

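Total RNA (100 ng) from the prefrontal cortex of 24 mice was labelled as cDNA and hybridised to Affymetrix arrays, per the labels' protocols. The deposited table holds log2 values, 1 per probe set and array, for 35556 probe sets, and the submitters' processing notes name RMA as the authors' method. The version and settings of RMA, and the genome build, were not given in the sources used here. Because background adds signal to both genotypes, RMA can understate the fold change of a dim gene. The number of arrays limits the precision.

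Probe sets were named from the platform annotation: 21218 had 1 symbol, 1881 several and 12457 none. Of these, 18820 genes were tested, 18790 of them matched to RefSeq (GRCm38.p6). Mutant and wild-type arrays, grouped by title, were compared with limma 3.58.1 (lmFit and eBayes, genotype only) in R 4.3.3, with Benjamini-Hochberg adjustment over all genes. Correlations used deviations from genotype means and 100000 resamples. The limma step was tested on simulated data.

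The members, lists and alternatives were chosen with earlier results of these data known. The text names every member with a row, and up to 4 genes with the smallest p in each other presynaptic list; the neighbours of Doc2b, and Tbr1 as a tissue check, were added after values were seen. Alternatives were other normalizations, variance models, filters, probe set rules, blocks, arrays 1 to 12 or 13 to 24 alone and left-out arrays.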

Additional observations from a re-analysis of the deposited data

How the results depend on the processing

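Of 36 alternative settings, 24 left out 1 array each, and most of the 12 others used all arrays, so the settings were not independent. Some, such as the intensity trend, leave the fold change itself unchanged. Doc2b was called higher in 34 of the 36. The exceptions took arrays 1 to 12 or 13 to 24 alone, with 0 members higher in arrays 1 to 12 and 0 in arrays 13 to 24, against 1 over all arrays; Doc2b was then at 0.23 and 0.38, with fewer arrays in the fit. Leaving out 1 array in turn kept Doc2b between 0.26 and 0.32, with adjusted p from 0.000448 to 0.0218 (limma). With an intensity trend, 1 other presynaptic gene (Napa) was lower, against 0; the cause was not tested. Same-numbered mice correlated in their deviations from -0.08 to 0.31, with a median of 0.10. Mice with different numbers were not compared, so these values cannot show whether the numbers mark pairs. No label states a pairing, and none was used in the main fit. A fit with the replicate block gave 1 member higher (Doc2b, adjusted p = 0.0111, limma) and changed no call of a member. Among uncalled members, 15 changed sign in at least 1 setting, each with a log2 fold change up to 0.03 in size in the main fit. Values in the alternative settings could be larger, as in Slc17a6 at -0.09 in arrays 1 to 12 and 0.12 in arrays 13 to 24. No detection call exists, so signal over background was not known.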
